A study of Homo sapiens with 25 samples.

Results

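NEAT1, MALAT1, MEG3, H19, MIR31HG, MIR22HG, LINC-PINT and TP53TG1 are long non-coding RNAs that have each been linked to growth arrest, senescence or the p53 response. They were taken by name, as 8 of the 58302 genes counted in bulk poly(A) RNA sequencing of hiF-T cells. This is a human fibroblast-like line from BJ skin fibroblasts in which hTERT, the catalytic subunit of telomerase, can be induced. The study sorted these cells by an accumulation dye, as a reading of proliferation status, or exposed them to inhibitors of chromatin enzymes. Whether slowly dividing cells carry more or less dye is not stated in the labels. All 25 libraries came from this line and carry a wild-type genotype in the labels.

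The sort set held 20 libraries, with 4 biological replicates each of ungated cells and of cells from the low, midlow, midhigh and high accumulation dye gates. The labels do not say whether a replicate was a separate culture, so p-values measure the spread between these samples. The drug set held 5 libraries. LSD1 inhibition had replicates 1 and 2, DOT1L inhibition had replicate 1, and the controls were DMSO (replicate 1) and no drug (replicate 2). LSD1 removes methyl groups from histone H3 and DOT1L adds methyl groups to H3, though not at the same site. The labels give no compound, dose or time for the inhibition of either. Gene counts summed to between 15015039 and 20030093 per library. Levels are given as CPM, counts scaled to a library of 1e+06 gene counts. For a gene with no read, counting error alone leaves room for 3 counts, which is 0.150 to 0.200 CPM. The 8 fibroblast marker genes summed to 6287 to 10948 CPM in the sort set, although THY1 reached at most 1.12 CPM. Lists of epithelial, endothelial, leukocyte and melanocyte markers summed to at most 5.14 CPM each in the sort set.

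NEAT1 is the architectural RNA of paraspeckles, nuclear bodies that assemble on its long form together with RNA-binding proteins. MALAT1, its neighbour on chromosome 11, sits in nuclear speckles, where splicing factors are stored. MEG3 and H19 are imprinted and expressed from the maternal allele, and MEG3 has been tied to p53 activity. MIR31HG lies near the CDKN2A locus and has been linked to senescence of human fibroblasts. MIR22HG and MIR31HG are the host transcripts of miR-22 and miR-31. LINC-PINT and TP53TG1 are both known as RNAs induced by p53.

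By GENCODE release 29 on GRCh38, NEAT1 covers chr11:65422774-65445540 and MALAT1 chr11:65497688-65506516, both on the plus strand. RNase P cuts the primary transcripts of MALAT1 and of the long NEAT1 form, and the mature RNAs end at that cut without a poly(A) tail. The sequences at those ends are shown because the counts of both genes carry the results below and the libraries were poly(A) selected. Capitals mark a U-rich motif, in DNA letters, and the A-rich stretch that pairs with it. The segments are chr11:65506061-65506116 and chr11:65445480-65445540, on the plus strand of GRCh38, from the GENCODE transcripts MALAT1-202 and NEAT1-202.
MALAT1: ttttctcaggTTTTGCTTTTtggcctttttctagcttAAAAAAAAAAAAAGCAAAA
NEAT1: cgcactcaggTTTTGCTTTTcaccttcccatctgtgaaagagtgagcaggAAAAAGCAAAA
The motif starts at base 8310 of the 8708 bases of MALAT1-202 and at base 22693 of the 22743 bases of NEAT1-202. Both segments end in the same letters, and the A-rich stretch is 19 bases long in MALAT1 and 11 in NEAT1. How much RNA with such ends entered these libraries was not tested, and a count per gene joins the short and the long form of NEAT1.

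The microRNAs inside MIR22HG and MIR31HG are shown because the host counts say nothing of the mature products, which these libraries did not measure. The seeds, bases 2 to 8, are in capitals, and the sequences are from RefSeq on GRCh38.p14.
hsa-miR-22-3p: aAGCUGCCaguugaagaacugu
hsa-miR-22-5p: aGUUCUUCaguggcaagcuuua
hsa-miR-31-5p: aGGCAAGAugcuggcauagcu
The 3 seeds differ from one another. The miR-22 products lie at chr17:1713914-1713935 and chr17:1713952-1713973 and miR-31-5p at chr9:21512158-21512178, all on the minus strand.

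Between the outer gates, NEAT1, MALAT1 and LINC-PINT rose in high dye cells relative to low dye cells, and none of the other RNAs passed the test. NEAT1 was 2.10-fold higher in high dye cells, LINC-PINT 1.84-fold and MALAT1 1.60-fold. Calls needed a p under 0.05 in edgeR's quasi-likelihood test after Benjamini-Hochberg adjustment over all genes. H19 stayed below the filter on low counts, so 7 of the 8 were tested, of which 3 were called higher and 0 lower. Of all 14592 genes tested, 9.39% were called higher and 8.37% lower. The 8 RNAs were chosen with earlier results of these data known, so these counts are a description. The median log2 fold change was 0.59 over the 7 RNAs and 0.0078 over all genes tested. The replicate numbers paired the sort libraries, and with the number as a block 4 of the 7 were called higher, MIR22HG being added, against 19.8% of all genes called higher and 17.4% lower.

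NEAT1 had 346, 228, 404 and 202 CPM in high dye replicates 1 to 4, against 165, 158, 117 and 121 CPM in the low dye replicates. Every high dye library lay above every low dye library. The means were 295 ± 95.9 CPM in high dye cells and 140.2 ± 24.5 CPM in low dye cells (SD, n = 4 each). The log2 fold change was 1.07 ± 0.21 (SE, edgeR adjusted p = 0.0030). Replicate 3 differed most, by 1.78 on the log2 scale, and replicate 2 least, by 0.53. With the replicate block the log2 fold change was 1.03 ± 0.15 (edgeR adjusted p = 2.3e-05). NEAT1 exons overlap 4 annotated genes on the same strand, MIR612 among them.

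MALAT1 had 1066, 692, 1537 and 1348 CPM in high dye replicates 1 to 4, against 714, 712, 766 and 706 CPM in the low dye replicates. Here the groups overlapped, because high dye replicate 2 lay below all 4 low dye libraries, and 3 of the 4 numbered pairs were higher in high dye cells. The log2 fold change was 0.68 ± 0.20 (edgeR adjusted p = 0.0226). That call rests on single libraries: the adjusted p in edgeR was 0.108 without high dye replicate 3, 0.0515 without high dye replicate 4 and 0.0544 without low dye replicate 4, with log2 fold changes of 0.51, 0.60 and 0.67. In a fit of the 8 compared libraries alone it was 0.0584. With the replicate block MALAT1 was called in the full set (0.64 ± 0.13, adjusted p = 4.4e-04) and without each replicate number in turn. A gene on the opposite strand overlaps MALAT1 exons, as do genes on the same strand. The kit does not mark strand, so reads in the overlaps cannot be assigned by strand. The strand setting of the counting is not given. Whether such reads were counted for MALAT1 or left out as ambiguous is therefore not known.

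LINC-PINT was a low-abundance RNA, with 97 to 185 reads per high dye library and 53 to 95 reads per low dye library. This came to 7.06, 7.05, 11.1 and 5.57 CPM in high dye replicates 1 to 4 and to 4.01, 4.83, 3.39 and 4.47 CPM in the low dye replicates. The groups did not overlap, and the log2 fold change was 0.88 ± 0.20 (edgeR adjusted p = 0.0067). The highest library, high dye replicate 3, also had the largest difference of its numbered pair, 1.68 on the log2 scale. GENCODE gives the name LINC-PINT to a second Ensembl gene, at chr7:130876809-130913310 on the minus strand, next to the gene used here at chr7:130938963-131110176. The second gene was also called higher in high dye cells (0.52 ± 0.12, edgeR adjusted p = 0.0073). LINC-PINT exons overlap exons of MKLN1 on the opposite strand, and MKLN1 itself was at 0.08 ± 0.14 on the log2 scale (edgeR adjusted p = 0.741). LINC-PINT exons also overlap AC016831.6, a long non-coding RNA gene on the same strand, and another such gene on the opposite strand.

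MIR22HG had 82.4, 53, 87.3 and 57.2 CPM in high dye replicates 1 to 4, against 56.8, 30.3, 68.0 and 47.0 CPM in the low dye replicates. The groups overlapped, yet each numbered pair was higher in high dye cells, by 0.28 to 0.80 on the log2 scale. Without the block the log2 fold change was 0.47 ± 0.27 and was not called (edgeR adjusted p = 0.240). With the block it was 0.50 ± 0.08 and was called (edgeR adjusted p = 7.4e-05). Over the 20 sort libraries, 75.7% of the variance of its log2 CPM lay between replicate numbers and 18.5% between groups.

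The other RNAs were not called between the outer gates. MEG3 averaged 496 ± 63.7 CPM in high dye cells and 425 ± 86.3 CPM in low dye cells, and its log2 fold change was 0.22 ± 0.15 (edgeR adjusted p = 0.331). With the block it was 0.24 ± 0.10 (edgeR adjusted p = 0.0635), and MEG3 was called in the blocked fit without replicate 2. MEG3 exons overlap 4 annotated genes, on both strands. TP53TG1 rested on 7 to 27 reads per high dye library and 5 to 17 per low dye library, and its log2 fold change was 0.59 ± 0.40 (edgeR adjusted p = 0.318). With the block it was 0.58 ± 0.39 (edgeR adjusted p = 0.263), and TP53TG1 was called in the blocked fit without replicate 4. High dye replicates 1 and 2 held 1.46 and 1.45 CPM of TP53TG1, while replicates 3 and 4 held 0.720 and 0.402 CPM. H19 had 1 read in high dye replicate 3 and 1 in high dye replicate 4 and none in the other 23 libraries, below what its depth can resolve.

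MIR31HG was the only tested RNA with a negative value, -0.14 ± 0.36 (edgeR adjusted p = 0.822). It had 5.60, 5.92, 3.42 and 2.58 CPM in high dye replicates 1 to 4, against 6.82, 5.70, 4.22 and 2.63 CPM in the low dye replicates. Its level went with the replicate number: in all 5 sort groups, replicates 1 and 2 held 4.88 to 7.39 CPM and replicates 3 and 4 held 2.58 to 4.22 CPM. The number took 93.2% of the variance of its log2 CPM, and the group 1.87%. What differed between the numbered replicates was not tested. MIR31HG exons overlap the pseudogene IFNWP19 on the opposite strand.

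**Figure D1:**
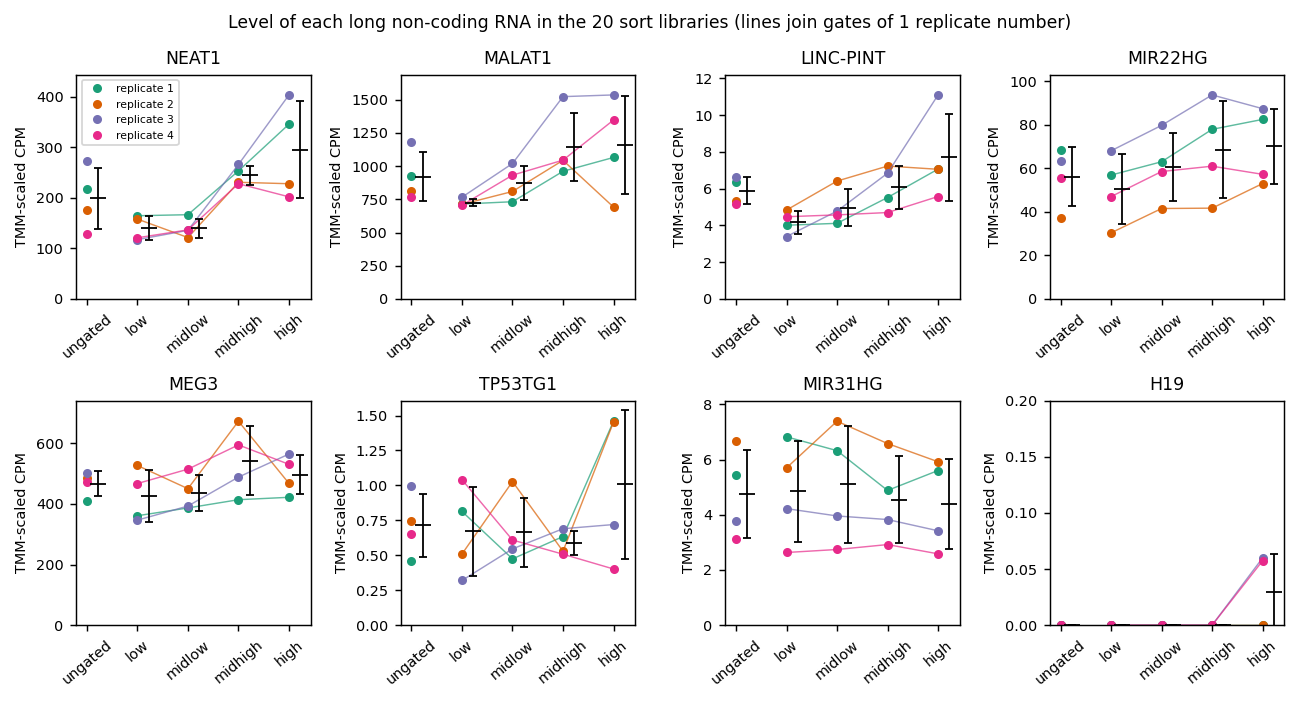
Level of each RNA (TMM-scaled CPM) in ungated cells and in the low, midlow, midhigh and high dye gates. Points are single libraries coloured by replicate number, lines join the gates of a number, and black bars give the mean ± SD of 4 libraries; NEAT1 steps up between the midlow and midhigh gates, and MIR31HG separates by replicate number.

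Across all 4 gates the order of NEAT1 was not an even climb. Its mean was 140.2 ± 24.5 CPM in low, 140.1 ± 19 in midlow, 245 ± 18.3 in midhigh and 295 ± 95.9 CPM in high dye cells (SD, n = 4 each). Low and midlow libraries lay between 117 and 167 CPM, and midhigh and high libraries between 202 and 404 CPM. MALAT1 averaged 725 ± 28.0, 873 ± 128, 1144 ± 257 and 1160.4 ± 368 CPM from low to high. LINC-PINT averaged 4.18 ± 0.62, 4.97 ± 1.00, 6.07 ± 1.17 and 7.70 ± 2.37 CPM in the same order. MIR22HG averaged 50.5 ± 16, 60.7 ± 15.7, 68.5 ± 22.3 and 70.0 ± 17.4 CPM. For every one of the RNAs, neighbours in the order of the 5 sort group means overlapped in their libraries.

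A slope over the 16 gated libraries, in equal steps from low to high, called the same 3 RNAs higher, against 14% of the 14419 genes tested, while 12.3% were called lower. NEAT1 gained 0.40 ± 0.06 log2 units per gate (edgeR adjusted p = 4.9e-04), LINC-PINT 0.29 ± 0.06 (adjusted p = 0.0029) and MALAT1 0.24 ± 0.06 (adjusted p = 0.0076). Within 1 replicate number the 4 gates climbed in strict order in 2 of 4 numbers for NEAT1 and in 3 of 4 for MALAT1 and LINC-PINT. With the replicate block, 5 of the 7 were called higher, against 23.1% of all genes, with 20.7% lower. The added RNAs were MIR22HG, at 0.16 ± 0.03 per gate (edgeR adjusted p = 3.5e-05), and MEG3, at 0.10 ± 0.03 (edgeR adjusted p = 0.0170). MEG3 was not called in the blocked fit without replicate 1 or without replicate 3.

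**Figure D2:**
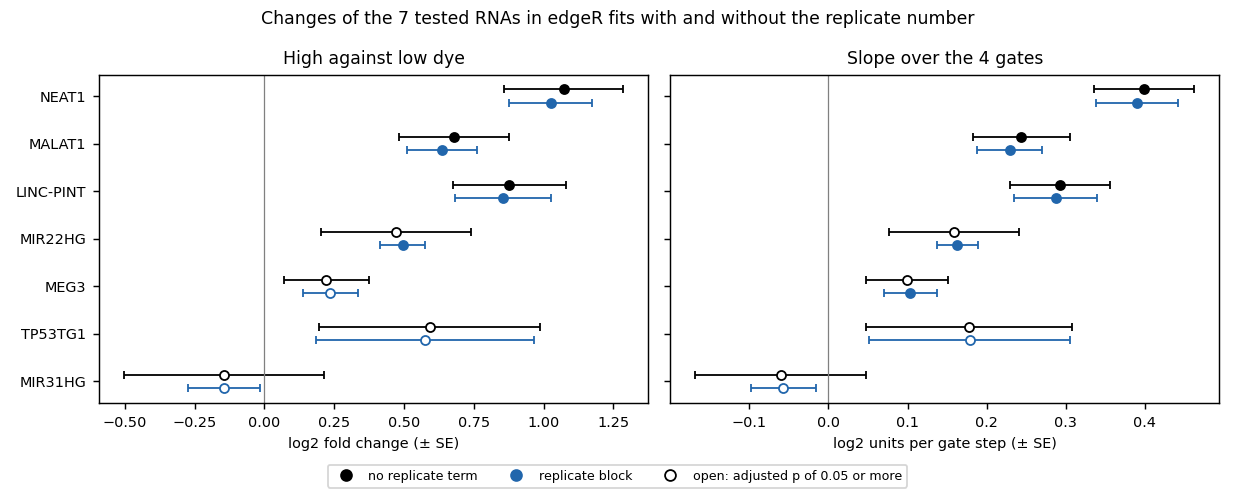
Log2 fold change of high against low dye cells (left) and slope per gate step from low to high (right), both ± SE, for the 7 tested RNAs in edgeR fits without a replicate term (black) and with the replicate block (blue). Filled points have an adjusted p under 0.05; the 2 fits give near-equal estimates, while the bars of MIR22HG and MIR31HG are much shorter with the block.

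Between the inner gates, midhigh and midlow, no RNA of the 7 was called, as was the case for every gene, 0% of 14592 in edgeR. At an unadjusted p under 0.05 there were 1892 genes. NEAT1 still separated fully: midhigh replicates 1 to 4 had 253, 231, 266 and 228 CPM, against 167, 121, 136 and 137 CPM in midlow replicates. Its log2 fold change was 0.80 ± 0.21 (edgeR adjusted p = 0.162). With the replicate block it was 0.80 ± 0.15 and was called (edgeR adjusted p = 0.0033), 1 of the 7 being called higher against 5.55% of all genes, with 5.27% lower. NEAT1 was called in the blocked fit without each replicate number in turn, among 274 to 1048 genes, against 1579 with all replicates. DESeq2's Wald test also called NEAT1 there (adjusted p = 0.0301) among 145 genes. MALAT1 had a log2 fold change of 0.39 ± 0.20 and MEG3 of 0.31 ± 0.15 between these gates, both higher in midhigh cells in 4 of 4 numbered pairs, and neither was called with the block (edgeR adjusted p = 0.0557 and 0.0504).

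The outer gates were also set against ungated cells. NEAT1 averaged 295 ± 95.9 CPM in high dye cells and 140.2 ± 24.5 CPM in low dye cells, against 199 ± 60.9 CPM in ungated cells (SD, n = 4 each). In each numbered set the high dye library lay above and the low dye library below the ungated one. Without the block, edgeR called none of the 7 RNAs in either comparison, against 0.00685% of all genes higher in high dye cells and 0.0754% lower in low dye cells. DESeq2 called none of the 7 either. At an unadjusted edgeR p under 0.05 stood 1 of the 7 in high dye cells, NEAT1, and 2 in low dye cells, NEAT1 and LINC-PINT, beside 1543 and 1897 of the 14592 genes tested, so that 1 of 7 is near the share of all genes. With the block, NEAT1 (0.56 ± 0.15, edgeR adjusted p = 0.0252) and MIR22HG (0.32 ± 0.08, adjusted p = 0.0234) were called higher in high dye cells, against 3.66% of all genes, with 3.93% lower. NEAT1 was called lower in low dye cells (-0.46 ± 0.15, edgeR adjusted p = 0.0493), against 7.2% of all genes, with 3.59% higher. These calls did not hold up evenly: without replicate 1 the blocked fit called neither NEAT1 nor MIR22HG in high dye cells, and MIR22HG was also lost without replicate 2 or 3. The number of all genes called in that fit was 12 without replicate 1, against 1107 with all replicates. The call of NEAT1 in low dye cells was lost without replicate 1, 2 or 3. LINC-PINT had 4.01, 4.83, 3.39 and 4.47 CPM in low dye cells and 6.35, 5.34, 6.64 and 5.15 CPM in ungated replicates 1 to 4, groups that did not overlap, but it was not called with the block (-0.48 ± 0.18, edgeR adjusted p = 0.0854). The sort comparisons share libraries, so their values are not independent of each other.

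Genes of arrest and division moved between the same gates. CDKN1A, the p53-induced inhibitor of cyclin-dependent kinases, averaged 187 ± 47.0 CPM in low, 271 ± 64.3 in midlow, 519 ± 228 in midhigh and 864 ± 333 CPM in high dye cells, and its log2 fold change between the outer gates was 2.21 ± 0.30 (edgeR adjusted p = 3.4e-04). MDM2, a p53 target that degrades p53, rose by 1.13 ± 0.17 on the log2 scale in high against low dye cells (edgeR adjusted p = 4.8e-04). MKI67, a marker of dividing cells, fell by 0.87 on the log2 scale (SE 0.23, edgeR adjusted p = 0.0136). In bulk samples, a change in the share of cells that hold an RNA and a change in its amount per cell cannot be told apart. The fibroblast markers summed to 8144 to 10198 CPM in high dye and 6287 to 8580 CPM in low dye libraries, with 3 of the 8 called higher and 0 lower, and 6 higher and 1, VIM, lower with the block. The block also called the endothelial marker KDR (0.77 ± 0.29, edgeR adjusted p = 0.0423) and the leukocyte marker PTPRC (1.58 ± 0.57, adjusted p = 0.0339) higher, from lists that summed to at most 5.14 and 1.14 CPM. TERT was between 767 and 2037 CPM in high dye and 400.2 and 1632 CPM in low dye libraries, and was called higher with the block (0.65 ± 0.18, edgeR adjusted p = 0.0073). Reads assigned to no feature averaged 5.99% in high dye and 6.50% in low dye libraries. The part of these shifts in the RNA levels was not tested.

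The mRNAs of paraspeckle proteins went the other way from NEAT1. Their list, like all gene lists here, was chosen with earlier results of these data known, so its counts are a description. Of the 13 listed, all tested, 0 were called higher and 11 lower in high dye cells, against 8.37% of all genes lower, with a median log2 fold change of -0.38. The largest falls were those of RBM14 (-0.54 ± 0.10, edgeR adjusted p = 0.0018), NUDT21 (-0.52 ± 0.10, adjusted p = 0.0025) and HNRNPH3 (-0.51 ± 0.10, adjusted p = 0.0030). RBM14 and HNRNPH3 bind RNA in paraspeckles, and NUDT21 is a subunit of the cleavage factor that sets the choice of poly(A) site. RBM14 had 43.5 to 57.9 CPM in high dye libraries and 72.1 to 79.4 CPM in low dye libraries, without overlap. SFPQ, a core paraspeckle protein named after its values were seen, averaged 490.3 ± 44.2 CPM in high dye cells and 689 ± 34.5 CPM in low dye cells. PSPC1 and SMARCA4 were the 2 not called, at -0.14 ± 0.09 and -0.21 ± 0.08. With the block, 12 were called lower between the outer gates, against 17.4% of all genes, and 8 between the inner gates, against 5.27%. Between the inner gates none was called without the block.

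Of the mRNAs of 10 nuclear speckle proteins, 0 were called higher and 7 lower in high dye cells, against 8.37% of all genes lower, with a median log2 fold change of -0.29. SRSF5, SRRM1 and SRRM2 were not called. SRSF7 fell by 0.61 on the log2 scale (SE 0.10, edgeR adjusted p = 9.9e-04), SRSF2 by 0.55 (SE 0.10, adjusted p = 0.0023) and SRSF1 by 0.54 (SE 0.13, adjusted p = 0.0072). All 3 are serine- and arginine-rich splicing factors. SRSF7 averaged 139 ± 20.8 CPM in high dye cells and 212 ± 5.34 CPM in low dye cells (SD, n = 4 each). With the block, 9 of the 10 were called lower, against 17.4% of all genes. Neither list was compared with other gene lists.

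**Figure D3:**
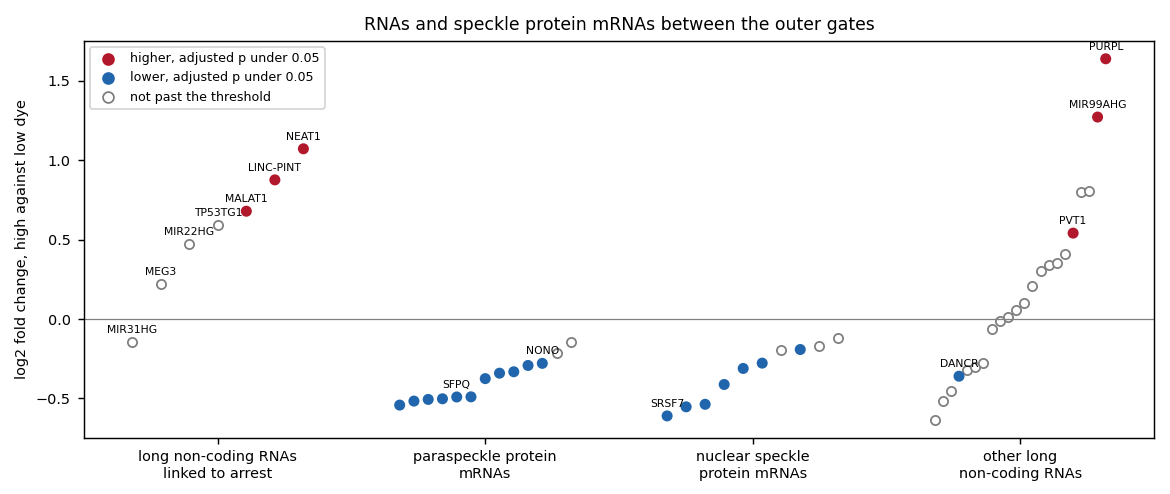
Log2 fold change of high against low dye cells for the 7 tested RNAs, the mRNAs of 13 paraspeckle and 10 nuclear speckle proteins, and 22 other long non-coding RNAs, each point 1 gene. Red and blue points had an edgeR adjusted p under 0.05; NEAT1 lies at 1.07 and MALAT1 at 0.68, while every called protein mRNA of both speckle lists lies below 0.

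Of 30 other long non-coding RNAs with ties to growth or arrest, 22 were tested, of which 3 were called higher and 1 lower in high dye cells and 18 were not called. The median log2 fold change was 0.08. These counts are near the shares of all genes, 9.39% higher and 8.37% lower. PURPL, a p53-induced RNA, rose by 1.64 ± 0.23 (edgeR adjusted p = 3.5e-04), to 13.7 to 27.1 CPM in high dye libraries against 5.25 to 7.76 CPM in low dye libraries. MIR99AHG, a microRNA host transcript, rose by 1.27 ± 0.38 (edgeR adjusted p = 0.0277) and PVT1, the neighbour of MYC, by 0.54 ± 0.13 (adjusted p = 0.0096). DANCR, the snoRNA host known for holding back differentiation, fell by 0.36 on the log2 scale (SE 0.09, edgeR adjusted p = 0.0107). GAS5, named for growth arrest and chosen here after its values were seen, had 162 ± 27.7 CPM in high dye cells and 156 ± 5.48 CPM in low dye cells, and was not called (adjusted p = 0.796). With the block, 4 were called higher and 4 lower, against 19.8% and 17.4% of all genes.

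At the loci of these RNAs, 16 of 21 listed neighbours were tested, of which 4 were called higher and 1 lower in high dye cells, against 9.39% and 8.37% of all genes. Next to NEAT1 and MALAT1, LTBP3, which binds latent TGF-beta, rose by 0.54 ± 0.16 (edgeR adjusted p = 0.0246), while FRMD8 (0.16 ± 0.09) was not called. Near MIR31HG, the kinase inhibitor genes CDKN2B (1.13 ± 0.20, edgeR adjusted p = 0.0019) and CDKN2A (0.49 ± 0.12, adjusted p = 0.0114) rose. CDKN2B had 8.45 to 14.5 CPM in high dye libraries and 4.61 to 5.39 CPM in low dye libraries. In the same region MTAP, an enzyme of methionine salvage, fell by 0.27 on the log2 scale (SE 0.09, edgeR adjusted p = 0.0353), and IFNE was at -0.42 ± 0.40 and not called. Next to MIR22HG, TLCD2 rose by 0.90 ± 0.26 (edgeR adjusted p = 0.0236), at 1.95 to 4.20 CPM in high dye and 1.13 to 2.24 CPM in low dye libraries, and WDR81 was at 0.12 ± 0.12 and not called. At the imprinted MEG3 locus MEG8 was at -0.40 ± 0.21, MEG9 at 0.06 ± 0.40 and RTL1 at 0.03 ± 0.62, none of them called. Near H19, MRPL23 was at -0.02 ± 0.16. Next to TP53TG1, CROT was at 0.18 ± 0.10 and TMEM243 at -0.13 ± 0.10, neither called. With the block, CROT was called higher (edgeR adjusted p = 0.0457) and MEG8 lower (adjusted p = 0.0056).

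Promoter windows of MALAT1 and LINC-PINT, called between the outer gates, and of MIR22HG, called there with the block, are shown to compare the motifs in them. RefSeq windows (GRCh38.p14) run from 250 bases before to 50 after a start. Of several listed starts the one nearest to the GENCODE gene start was used, at a distance of 50 bases for MALAT1, 251 for LINC-PINT and 964 for MIR22HG. NEAT1 has no window here. Capitals mark the motif GGGCGG and the motif CCAAT on either strand, and the search also covered the p53 half-site.
MALAT1: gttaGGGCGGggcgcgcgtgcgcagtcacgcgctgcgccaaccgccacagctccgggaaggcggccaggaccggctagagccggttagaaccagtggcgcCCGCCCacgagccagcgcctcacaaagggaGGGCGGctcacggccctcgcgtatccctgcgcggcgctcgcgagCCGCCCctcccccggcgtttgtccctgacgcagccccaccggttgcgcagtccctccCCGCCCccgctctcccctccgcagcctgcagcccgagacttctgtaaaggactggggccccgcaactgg
LINC-PINT: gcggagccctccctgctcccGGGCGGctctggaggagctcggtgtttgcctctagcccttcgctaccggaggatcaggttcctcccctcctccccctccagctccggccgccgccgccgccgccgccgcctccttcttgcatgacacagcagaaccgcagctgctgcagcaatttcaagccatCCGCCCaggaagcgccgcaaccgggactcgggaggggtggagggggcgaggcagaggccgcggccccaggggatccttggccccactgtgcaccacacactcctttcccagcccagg
MIR22HG: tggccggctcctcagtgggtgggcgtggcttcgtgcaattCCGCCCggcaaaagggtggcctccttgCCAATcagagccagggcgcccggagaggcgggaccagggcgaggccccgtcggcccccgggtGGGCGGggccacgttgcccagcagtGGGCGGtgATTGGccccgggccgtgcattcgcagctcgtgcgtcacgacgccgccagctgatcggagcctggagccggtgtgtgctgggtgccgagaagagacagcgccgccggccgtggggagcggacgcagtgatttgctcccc
The windows are chr11:65497488-65497787 on the plus strand, chr7:131109876-131110175 on the minus strand and chr17:1716161-1716460 on the minus strand. MALAT1 had 5 matches to GGGCGG, LINC-PINT 2 and MIR22HG 3, a motif that 45% of 35116 RefSeq promoter windows hold. MIR22HG also had 2 CCAAT matches, a motif of 34.6% of the windows. The p53 half-site, which 6.63% of windows hold, matched in none of the windows of the 7 RNAs with a window. With a share that low, no match in 7 windows says little either way. The start used for MEG3 lay 46698 bases from its GENCODE gene start, so its window is not at that start. Other listed starts of MALAT1, MEG3 and LINC-PINT were not searched. These letters say nothing of whether a factor binds there or elsewhere.

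Levels were compared between RNAs per kilobase of merged exon length, as group means over the 5 sort groups. On this scale MALAT1 was highest, at 82.1 to 131 CPM per kilobase. MEG3 lay at 18.3 to 23.3 and MIR22HG at 16.9 to 23.4 CPM per kilobase. NEAT1 followed at 6.16 to 13.0, with MIR31HG at 5.88 to 6.85 CPM per kilobase. TP53TG1 lay at 0.577 to 0.986 and LINC-PINT at 0.462 to 0.852 CPM per kilobase. A merged length of 22767 bases was used for NEAT1, which lowers its value if most reads came from the short form. The merged lengths of MEG3, 23224 bases, and of LINC-PINT, 9030 bases, also join all annotated exons of the gene. Their values are likewise lowered if most reads came from shorter forms. The order given here therefore holds for this choice of length, and other lengths were not tried.

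Genes with the most similar pattern were found by Pearson's r of log2 CPM over the 20 sort libraries among 8914 genes, as a description. These libraries share gates and replicate numbers. NEAT1 was most like CHD2 (r = 0.970), a chromatin remodeller, CALCOCO1 (0.944), a coactivator and autophagy receptor, and DUSP3 (0.919), a phosphatase. MALAT1 was most like SPARC (0.896), a matrix glycoprotein, TMEM45A (0.884) and TSPAN13 (0.880). LINC-PINT was most like STAT2 (0.879), an interferon signalling factor, SRPX2 (0.878) and GOLGB1 (0.872), a Golgi protein. MIR22HG was most like GREM1 (0.960), a BMP antagonist, RHOB (0.959), a small GTPase, and SLC20A2 (0.945), a phosphate transporter. MIR31HG was most like CYP27C1 (0.945), CNIH3 (0.936) and TNC (0.934), the matrix protein tenascin C. MEG3 reached 0.854 with DNASE1, 0.826 with NFATC4 and 0.815 with AFF3. TP53TG1 reached only 0.757 with RPS18, 0.713 with TRPC1 and 0.675 with TCEAL7.

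In the drug set, LSD1 inhibition was set against the DMSO and no drug libraries together, and none of the 7 RNAs was called in edgeR, against 0.114% of the 14002 genes tested. DESeq2 called none of them, and 0 of the 7 had an unadjusted edgeR p under 0.05, beside 950 of all genes tested. NEAT1 had 338 and 551 CPM in LSD1 inhibition replicates 1 and 2, against 267 CPM in DMSO and 444 CPM in no drug cells. Replicate 2 was higher than replicate 1 in both conditions. The log2 fold change was 0.33 ± 0.30 (edgeR adjusted p = 0.960). With the replicate block NEAT1 was the 1 RNA called (edgeR adjusted p = 9.4e-08), against 9.1% of all genes called higher and 6.91% lower. Same-numbered libraries correlated in their deviations from group means (r = 0.474), but 2 libraries a group give only a single such value. Without the block the log2 fold change of NEAT1 was 0.75 without the no drug library and -0.069 without LSD1 inhibition replicate 2. MIR31HG had 3.79 and 4.44 CPM with LSD1 inhibition, against 4.71 CPM in DMSO and 6.64 CPM in no drug cells, and its log2 fold change was -0.46 ± 0.25 (edgeR adjusted p = 0.870). MALAT1 had 1433 and 1346 CPM with LSD1 inhibition, against 1426 CPM in DMSO and 1397 CPM in no drug cells. MEG3 had 553 and 787 CPM with LSD1 inhibition, against 484 CPM in DMSO and 783 CPM in no drug cells, following the replicate number. LINC-PINT, MIR22HG and TP53TG1 had log2 fold changes of 0.05 ± 0.18, 0.01 ± 0.12 and -0.17 ± 0.41. Without the block, none of the genes of the lists above was called either, MKI67, CDKN1A and MDM2 included. With it, CDKN1A (0.19 ± 0.05, edgeR adjusted p = 0.0047) was called higher and MKI67 (-0.19 ± 0.06, adjusted p = 0.0059) lower. The blocked fit also called 6 of 7 tested fibroblast markers and the epithelial marker EPCAM (2.36 ± 0.34, edgeR adjusted p = 4.8e-10) higher. TERT was called lower (-0.48 ± 0.05, edgeR adjusted p = 5.6e-17). The epithelial list summed to only 0.744 to 2.95 CPM in the drug set. Called lower were 1 of 13 paraspeckle mRNAs, 2 of 10 nuclear speckle mRNAs and 1 of 22 other long non-coding RNAs. Of 15 locus neighbours, 1 was called higher and 2 lower. The shares of all genes were 9.1% higher and 6.91% lower. The part of these shifts in the NEAT1 value was not tested. The control was DMSO in replicate 1 and no drug in replicate 2, so the block also stands for the kind of control. With so few libraries in the blocked fit, its p-values, that of NEAT1 included, rest largely on the spread shared across genes.

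DOT1L inhibition had a single library, so its comparison with DMSO has no replicate check and no test. None of these RNAs differed by 2-fold, a size that 4.58% of 14540 genes passed upwards and 0.846% downwards. The ratios below use CPM of the total gene counts with exact 95% intervals that cover counting error only. MALAT1 was 0.776 times its DMSO level (0.761 to 0.791), from 19036 reads with DOT1L inhibition and 22994 reads with DMSO. MIR31HG was 0.678 times its DMSO level (0.470 to 0.972), from 55 reads with DOT1L inhibition and 76 reads with DMSO. MIR22HG was 1.20 times (1.11 to 1.31), MEG3 1.15 times (1.12 to 1.19) and NEAT1 1.09 times (1.05 to 1.14) the DMSO level. LINC-PINT (1.03, 0.800 to 1.32) and TP53TG1 (0.937, 0.368 to 2.38) did not differ beyond counting error. H19 had no read in any drug library.

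**Figure D4:**
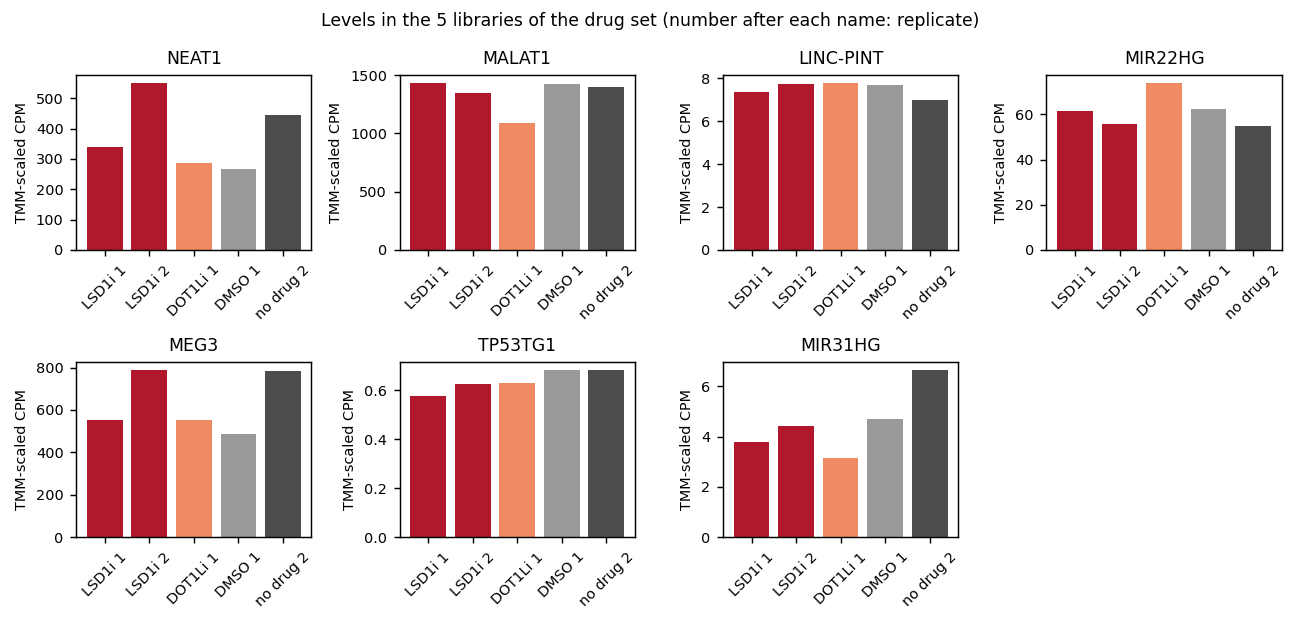
Level of the 7 RNAs with reads (TMM-scaled CPM) in the 5 drug set libraries, 1 bar per library, with LSD1 inhibition (LSD1i) and DOT1L inhibition (DOT1Li) left of the DMSO and no drug controls. NEAT1 and MEG3 are higher in both replicate 2 libraries, and MALAT1 is lowest with DOT1L inhibition, at 1091 CPM.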

How the data were processed

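RNA was poly(A) selected and made into libraries with a kit that does not mark strand, per the labels' protocols. The authors deposited raw counts per gene and library, aligned with STAR and counted with HTSeq on hg38/GRCh38 per the submitters' processing notes. Versions, annotation release and strand setting are not given in the sources used here. Rows that name no gene were left out of library sizes. Reads with no feature were 4.33 to 7.72% and ambiguous reads 7.14 to 7.62% per library. No 2 libraries of a group agreed within sampling noise (lowest chi-square per degree of freedom 8.22, 31 pairs).

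From the counts, genes were filtered with filterByExpr (minimum count 10, total 15), scaled by TMM and tested with edgeR's quasi-likelihood test (edgeR 4.0.16, limma 3.58.1, R 4.3.3), with all sort groups in 1 fit and the 4 LSD1 inhibition, DMSO and no drug libraries in another, and Benjamini-Hochberg adjustment over all genes tested. The slope used the 16 gated libraries. SE is the log2 fold change over the square root of F. Printed CPM are TMM-scaled, log2 CPM used a prior count of 2, and the DOT1L ratios used total gene counts without TMM. Alternatives were DESeq2 1.42.0, its size factors, no scaling, no filter, a replicate block, the compared libraries alone and leaving out each library.

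Replicate numbers were taken to pair the sort libraries, because deviations from group means correlated above 0.1 in 40 of 40 same-number pairs (0.146 to 0.618) and in 16 of 120 other pairs. Of each list, up to 3 genes per direction with the largest called changes were named, and the tested neighbours of the loci, of which 1 is not reported here. The 8 RNAs and all gene lists were chosen with earlier results of these data known.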

Additional observations from a re-analysis of the deposited data

Results flagged for a closer look

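Over all the tested RNAs, a single library stood apart from the other 3 of its group in 2 of 35 groups of 4 libraries examined by Dixon's criterion. The groups flagged were of MALAT1. Chance gives about 1 in 20. Midhigh dye replicate 3 had 1524 CPM, against 961 to 1045 CPM in the other midhigh libraries. Low dye replicate 3 had 766 CPM, against 706 to 714 CPM in the other low dye libraries.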

How the results depend on the processing

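Between the outer gates, NEAT1, MALAT1 and LINC-PINT were called under DESeq2's size factors, no scaling, no filter and DESeq2's test. Fitting only the compared libraries called 2 of the 3 (1497 of all genes, against 2591), and leaving out 1 library called 2 to 3 (1255 genes without high dye replicate 3, 1534 without high dye replicate 1, up to 2966). Leaving out a library gave 3 RNAs for the slope each time and 0 in each inner gate and ungated comparison. Without the filter and in DESeq2 1 RNA, NEAT1, was called between the inner gates, among 99 and 145 genes. The replicate block called 4 RNAs between the outer gates, 5 for the slope, 1 between the inner gates, 2 and 1 for high and low dye cells against ungated cells, among 5434, 6315, 1579, 1107 and 1575 genes. With the block and each replicate number left out, a choice made after seeing the data, the counts were 4 to 5, 4 to 6, 1 to 2, 0 to 2 and 0 to 1, among 3708 to 4961, 4314 to 6332, 274 to 1048, 12 to 1477 and 499 to 1020 genes. The lowest were without replicate 1 for the outer gates, the inner gates and high dye against ungated cells, and without replicate 3 for the other comparisons. Summing both LINC-PINT genes, also chosen after seeing the data, left the counts of RNAs as they were (LINC-PINT 0.61 between the outer gates, edgeR adjusted p = 0.0022). Of all genes, no filter and DESeq2 called 25 and 15 in high dye and 177 and 192 in low dye cells against ungated cells.

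In the LSD1 comparison the block called 1 RNA, NEAT1 (0.33 ± 0.06, edgeR adjusted p = 9.4e-08, 2242 genes). Deviations from group means correlated between same-numbered libraries (r = 0.474), above the 0.1 used for the sort set. With 2 libraries a group this is a single value. The replicate number also stands for the kind of control, DMSO or no drug. Leaving out a library called 0 to 1 RNA, among 108 to 331 genes, and DESeq2 called 109 genes and no filter 0.

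Log2 fold changes that were not called changed sign as follows, with the lowest and highest value over libraries or replicate numbers left out. For LSD1 inhibition these were NEAT1 (-0.069 to 0.75), MALAT1 (-0.059 to 0.027), MEG3 (-0.22 to 0.48), LINC-PINT (-0.010 to 0.11) and MIR22HG (-0.072 to 0.095, and -0.0010 without the filter and -0.0059 in DESeq2). MIR31HG ran from -0.35 to 0.061 between the outer gates, -0.41 to 0.063 between the inner gates, -0.30 to 0.088 in high dye and -0.18 to 0.23 in low dye cells against ungated cells. In the last of these it was -0.11 and -0.025 with the block and without replicate 1 or 3. MIR22HG ran from -0.013 to 0.35 between the inner gates and -0.33 to 0.029 in low dye against ungated cells. TP53TG1 ran from -0.33 to 0.12 and -0.37 to 0.14 in these comparisons. With the block it was 0.18 between the inner gates without replicate 2, and 0.072 and 0.34 in low dye against ungated cells without replicate 2 or 3. The cause was not tested. Counts of 5 to 27 reads limit TP53TG1, and 0 to 1 read limits H19.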
